A study of Mus musculus with 6 samples.

Results

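In mouse duodenal organoids given BMP2, 37 genes combined a change in isoform use with a higher level of the gene, from the Golgi protein gene Scoc at 3.76-fold to the ciliary transport gene Ift172 at 1.42-fold. They were chosen from the 202 genes of the authors' deposited table of isoform switches. For each gene a level was implied in each condition, as the summed mean TPM of its listed isoforms divided by their summed share of the gene (TPM is an abundance scaled for transcript length and library size), which gave a level for 195 genes. A gene was kept when the log2 ratio of BMP2 to vehicle was over 0.5 and its symbol was not among 24 symbols set aside by the rule. Of the 195 genes 56 were over 0.5, which is 28.7%, and 19 of these were on that list. The levels chose the genes, so they are given as a description with no test, and the usage values come from the same comparison. Just inside the threshold were Ift172 at 0.51 and Serf2 at 0.53, and just outside were Wwp2 at 0.50 (0.496 before rounding) and Iqcc at 0.47.

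The organoids are self-organising cultures grown from duodenal crypts of C57BL/6 wild-type mice, and all libraries share this genotype. The vehicle group has 3 libraries and the BMP2 group has 3 libraries, the latter given 100 ng/ml BMP2, and both were treated on day 6 for 24 h. The values used are averages that the authors took over the libraries of a condition, and they carry no replicate error. The labels do not tie the libraries to separate cultures or mice, so a q-value covers only a spread between libraries that may be technical. The question was which isoforms shift under BMP2.

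BMP2 is a secreted ligand that acts through serine/threonine kinase receptors and SMAD transcription factors, and in the small intestine BMP signalling is strongest toward the villus, where enterocytes mature. A gene can make several transcripts by starting at another promoter, by including or skipping exons, or by ending at another site. Transcripts without a full reading frame, such as those retaining an intron or marked for nonsense-mediated decay, count toward the gene's level but do not encode its full-length protein. Usage is an isoform's abundance as a percent of its gene's, so it can drop while the abundance of the isoform itself stays level or grows.

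The 37 genes hold 52 of the 302 listed isoforms. Usage was higher in BMP2 for 21 isoforms and lower for 31, or 40.4% higher against 45.0% over all listed isoforms and 59.6% lower against 55.0%. All listed isoforms pass a q of 0.05 in the authors' deposited table. There 37 of the 52 had a q under 0.01, or 71.2% against 73.5% of all listed isoforms. The absolute difference in usage fraction ran from 0.103 to 0.348 with a median of 0.1795, against a median of 0.2015 over all listed isoforms. In bulk RNA, fewer cells of a type and less RNA per cell cannot be told apart. Of 46 marker genes of intestinal, mesenchymal, immune and endothelial cells and BMP targets in 10 lists, 2 are in the table and none is among the 37 genes, so the labelled tissue could not be checked against its markers here.

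The isoforms with higher and lower usage differ in coding sequence in ways that a few stretches make visible. The sequences are GENCODE M21 transcripts, and positions are on GRCm38. In the first set an exon of the isoform with lower usage is absent from the isoform with higher usage, except for Tbc1d31, where the exon belongs to the isoform with higher usage. Capitals mark the exon and lower case the coding bases beside it. The Ubap1 exon lies at chr4:41387175-41387357 and has 183 bases, the Selenbp2 exon at chr3:94696794-94696850 has 57 bases, and the Tbc1d31 exon at chr15:57962069-57962263 has 195 bases. Each of these is a whole number of codons.
Ubap1-201 exon 5: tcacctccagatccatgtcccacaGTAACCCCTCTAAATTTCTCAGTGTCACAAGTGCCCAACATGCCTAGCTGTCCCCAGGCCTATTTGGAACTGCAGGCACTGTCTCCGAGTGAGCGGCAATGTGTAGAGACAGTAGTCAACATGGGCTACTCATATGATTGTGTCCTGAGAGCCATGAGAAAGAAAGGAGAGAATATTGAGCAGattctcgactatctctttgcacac
Selenbp2-201 exon 2: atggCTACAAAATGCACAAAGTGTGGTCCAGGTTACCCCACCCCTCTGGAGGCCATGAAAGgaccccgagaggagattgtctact
Tbc1d31-206 exon 3: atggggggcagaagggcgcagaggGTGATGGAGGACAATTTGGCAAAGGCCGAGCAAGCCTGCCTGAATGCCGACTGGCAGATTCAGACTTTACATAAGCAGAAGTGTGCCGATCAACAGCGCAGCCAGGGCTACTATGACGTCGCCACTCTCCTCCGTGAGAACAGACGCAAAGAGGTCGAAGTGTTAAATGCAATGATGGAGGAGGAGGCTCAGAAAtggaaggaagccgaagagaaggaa

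The Dusp12 exon at chr1:170880573-170880691 has 119 bases, which is not a whole number of codons. It is present in Dusp12-201 and absent from Dusp12-202, a transcript marked for nonsense-mediated decay. In Dusp12-202 a stop codon follows 34 bases after the new junction. Capitals mark the exon in the first line and the stop codon in the second.
Dusp12-201 exon 3: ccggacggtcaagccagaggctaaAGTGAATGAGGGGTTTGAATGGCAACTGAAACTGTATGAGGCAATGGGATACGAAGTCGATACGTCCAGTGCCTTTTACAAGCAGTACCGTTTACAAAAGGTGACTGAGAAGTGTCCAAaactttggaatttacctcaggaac
Dusp12-202 junction to stop: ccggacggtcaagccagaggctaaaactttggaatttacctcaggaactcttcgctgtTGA

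In the next set the isoforms of a gene begin their reading frames differently. Capitals mark the start codon, and the bases shown are the coding bases up to the first exon shared with the partner, or for Mia2-222 and Ppp2r5c-203 those of the first exon alone. The Fam3c-203 line runs over exons 2 and 3, both absent from Fam3c-201.
Scoc-201 coding start: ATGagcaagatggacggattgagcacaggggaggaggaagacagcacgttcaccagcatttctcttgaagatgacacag
Fam3c-203 coding start: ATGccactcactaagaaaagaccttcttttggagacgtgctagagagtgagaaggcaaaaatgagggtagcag
Mtus1-204 coding start: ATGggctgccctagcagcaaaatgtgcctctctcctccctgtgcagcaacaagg
Mia2-222 coding start: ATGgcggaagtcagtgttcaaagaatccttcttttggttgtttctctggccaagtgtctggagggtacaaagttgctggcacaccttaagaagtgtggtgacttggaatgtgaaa
Mia2-210 coding start: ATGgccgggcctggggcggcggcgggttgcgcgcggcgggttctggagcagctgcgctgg
Ppp2r5c-203 coding start: ATGccgaataaaaacaagaaggagaaa
Ppp2r5c-205 coding start: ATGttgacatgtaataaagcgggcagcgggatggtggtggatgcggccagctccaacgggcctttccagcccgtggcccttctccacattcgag

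In Serf2 the isoforms share their second exon and then continue into different exons. Lower case is the shared end and capitals are the first 64 bases that follow. Exon 3 of Serf2-205 lies at chr2:121457009-121457291 and that of Serf2-201 at chr2:121450698-121451054.
Serf2-201 exon 3: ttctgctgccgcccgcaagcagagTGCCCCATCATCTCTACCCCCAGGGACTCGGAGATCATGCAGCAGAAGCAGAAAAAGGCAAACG
Serf2-205 exon 3: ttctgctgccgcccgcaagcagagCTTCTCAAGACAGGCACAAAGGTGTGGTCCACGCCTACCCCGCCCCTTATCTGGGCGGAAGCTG

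Scoc is the gene of the set with the highest level ratio, and its isoforms start 15844 bases apart. The RefSeq promoter table (GRCm38.p6) holds a start near each, 47 bases upstream of Scoc-201 and 157 bases upstream of Scoc-203. The stretches shown are 280 bases each, at chr8:83458367-83458646 and chr8:83442633-83442912 on the minus strand. Capitals mark GGCGCC, an element bound by BMP-activated SMADs, which reads the same on both strands.
Scoc-201 promoter: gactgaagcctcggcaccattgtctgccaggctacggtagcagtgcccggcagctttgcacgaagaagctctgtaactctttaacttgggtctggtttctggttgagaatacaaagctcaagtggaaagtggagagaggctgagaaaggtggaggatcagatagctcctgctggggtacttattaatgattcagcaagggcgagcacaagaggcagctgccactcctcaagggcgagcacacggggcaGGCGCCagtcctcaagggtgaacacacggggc
Scoc-203 promoter: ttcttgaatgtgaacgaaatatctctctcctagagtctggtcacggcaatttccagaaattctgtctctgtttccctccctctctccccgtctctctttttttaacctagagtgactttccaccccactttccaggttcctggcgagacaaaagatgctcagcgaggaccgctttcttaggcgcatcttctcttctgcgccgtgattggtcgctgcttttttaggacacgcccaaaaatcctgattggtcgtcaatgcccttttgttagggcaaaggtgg
The whole 300-base window of Scoc-201 holds GGCGCC 2 times and that of Scoc-203 holds none. Of all 32817 promoters of that length 11.9% hold GGCGCC, and of the 50 promoters found for 31 of the 37 genes 10 do, or 20%. They belong to 2900026A02Rik, Dgka, E2f3, Mycbp, Pcgf5, Prex1, Scoc, Tfeb, Tjap1 and Ubap1. The palindrome GTCTAGAC, which SMADs also bind, is in none of the 50 and in 0.213% of all promoters. The sets of promoters were not matched for base composition or for expression, so nothing is read from these shares. A match is only a stretch of letters.

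Of the 37 genes, 12 act in membrane traffic, secretion and the lysosome, and their levels were 1.45-fold to 3.76-fold higher in BMP2. Roles were assigned to the 37 genes alone, so the counts by role have no share over all 202 genes beside them. Scoc, which encodes a short coiled-coil protein of the Golgi (chr8:83430084-83458391), stood at 17.9 TPM without and 67.2 TPM with BMP2. Scoc-201 made up 63.3% of its transcripts in vehicle and 83.4% in BMP2, and its mean abundance was 11.3 and 56.0 TPM (q = 0.00498, authors' deposited table). Scoc-203, with a coding length of 246 bases against 375 in Scoc-201, fell from 17.1% to 0.6% and from 3.09 to 0.429 TPM (q = 0.0136, authors' deposited table). It is the isoform of the set with the lowest ratio of abundance. Of its words of 31 bases, the length kallisto uses by default, 63.9% also occur in the gene Gm7335, against 13.3% for Scoc-201. None of the 379 words of Scoc-203 is its own, and 21 of the 1761 words of Scoc-201 are, so the values of Scoc-203 are uncertain. What part these shared words have in the values was not tested.

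Fam3c encodes a secreted cytokine-like protein (chr6:22306520-22356243), and its level was 39.1 TPM without and 123.9 TPM with BMP2. Fam3c-203 was the isoform of the set with the highest ratio of abundance, at 2.28 TPM without and 24.4 TPM with BMP2, and its usage rose from 5.9% to 19.7% (q = 0.0176, authors' deposited table). Its coding length is 741 bases against 591 in Fam3c-201 and its reading frame begins with the bases shown above. Fam3c-201 fell from 56.2% to 45.4% of transcripts, yet its abundance was 22.0 TPM without and 56.3 TPM with BMP2 (q = 0.0319, authors' deposited table). Both isoforms were thus more abundant in BMP2, and the shift was in their proportion.

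Kif16b, a kinesin that carries early endosomes (chr2:142617474-142901531), stood at 11.3 TPM without and 22.3 TPM with BMP2. Kif16b-201, with 26 exons, fell from 44.2% to 18.5% of transcripts while its abundance was 4.97 and 4.12 TPM (q = 1.25e-12, authors' deposited table). Kif16b-204, a model of 2 exons whose start is not annotated, rose from 20.7% to 35.2% and stood at 2.33 and 7.84 TPM (q = 0.00929, authors' deposited table). These isoforms share no intron. Kif16b-201 has 12 words of its own among 6353, and Kif16b-204 has 1459 among 2128.

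Ubap1 is a subunit of the ESCRT-I complex, which sorts ubiquitin-tagged cargo into multivesicular bodies. Ubap1-202, which lacks the exon of 183 bases shown above, rose from 12.5% to 30.1% and stood at 3.33 TPM without and 13.5 TPM with BMP2. Ubap1-201 fell from 58.3% to 42.0% at 15.6 and 18.9 TPM. In Mia2, an organiser of endoplasmic reticulum exit sites, Mia2-222 rose from 17.1% to 31.2% and from 13.9 to 40.5 TPM. Its coding length is 4191 bases and it starts 35667 bases upstream of Mia2-210, whose coding length is 2415 bases and whose abundance was 41.2 and 39.4 TPM. The level of Mia2 was 81.7 TPM without and 129.9 TPM with BMP2. None of the words of Mia2-210 is its own, and 347 of the 4164 words of Mia2-222 are.

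Trappc4, a subunit of the TRAPP tethering complexes, holds the one listed retained-intron isoform of the set. Trappc4-202 rose from 42.5% to 59.1% and from 20.9 to 42.1 TPM, while the protein-coding Trappc4-201 was at 26.0 TPM without and 25.2 TPM with BMP2. Exons of Rps25, which encodes a ribosomal protein, overlap 37.9% of Trappc4-201 on the opposite strand, and 36.3% of its words occur in Rps25. Strandedness of the counting, not given in the sources used here, bears on such a gene, and its values are uncertain.

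In the other genes of this role 1 isoform each is listed. Prrc1-206, of a gene acting at endoplasmic reticulum exit sites, rose from 16.2% to 27.7%. Ap5z1-201, of the zeta subunit of the adaptor complex AP-5, fell from 55.7% to 35.5%. Plekhm1-201, of a late endosome adaptor, fell from 100% to 87.1%. Tfeb-212 fell from 39.7% to 20.5%. Tfeb encodes a master transcription factor of lysosomal genes, and its level was 5.33 TPM without and 7.90 TPM with BMP2. The transporter isoforms Slc36a1-203, of a proton-coupled amino acid carrier, and Slc18b1-201, of a vesicular polyamine carrier, fell from 98.3% to 83.7% and from 94.1% to 74.6%. Both genes are among 3 solute carriers in the table.

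**Figure D1:**
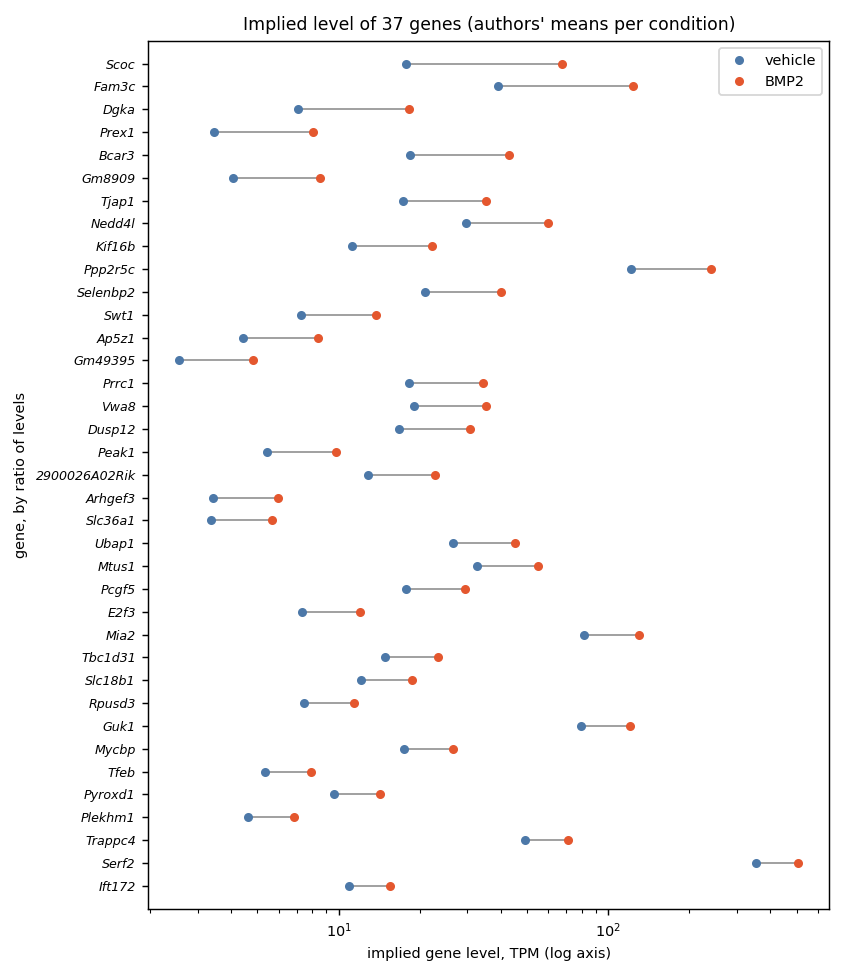
Implied gene level in TPM (log axis) of the 37 genes in vehicle and BMP2, computed here from the authors' means per condition, with genes ordered by the ratio. Every gene is higher in BMP2 because the rule requires it, from 1.42-fold in Ift172 to 3.76-fold in Scoc, and Serf2 has the highest level in both conditions.

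Signalling, junction and cytoskeleton genes make up another 12, with levels 1.42-fold to 2.57-fold higher in BMP2. Dgka, which phosphorylates diacylglycerol, stood at 7.10 TPM without and 18.3 TPM with BMP2. Dgka-201 rose from 82.5% to 95.3% and from 5.86 to 17.4 TPM (q = 0.0316, authors' deposited table). The other isoforms of Dgka together were at 1.24 TPM without and 0.859 TPM with BMP2, so the higher level lay in Dgka-201.

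Prex1, an exchange factor for the GTPase Rac (chr2:166566342-166713832), exchanged its most used isoform. Prex1-203 rose from 39.7% to 68.1% and from 1.37 to 5.51 TPM (q = 0.000259, authors' deposited table). Prex1-201 fell from 57.4% to 29.0% at 1.97 TPM without and 2.32 TPM with BMP2 (q = 0.00028, authors' deposited table). Prex1-203 starts 131761 bases downstream of Prex1-201 and has 14 exons in place of 40, with a coding length of 1386 bases against 4950. The level of the gene was 3.45 TPM without and 8.06 TPM with BMP2, and 73 of the 2356 words of Prex1-203 are its own.

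Bcar3, an adaptor that binds the focal adhesion protein p130Cas, stood at 18.4 TPM without and 42.7 TPM with BMP2. Bcar3-201 rose from 60.0% to 80.4% and from 11.0 to 34.3 TPM (q = 0.000171, authors' deposited table), while the remaining isoforms were at 7.35 and 8.37 TPM. Arhgef3 encodes a guanine nucleotide exchange factor. Arhgef3-204, which starts furthest upstream in the gene, had the largest gain of the set, from 16.1% to 46.5% and from 0.551 to 2.77 TPM (q = 0.00181, authors' deposited table). Its gene level was 3.42 TPM without and 5.96 TPM with BMP2. Peak1-204, of a pseudokinase at focal adhesions, rose from 76.7% to 89.5% (q = 0.0436, authors' deposited table).

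Tjap1 encodes a tight junction-associated protein. Tjap1-202 fell from 59.6% to 36.1% of transcripts at 10.3 TPM without and 12.7 TPM with BMP2 (q = 0.0198, authors' deposited table), and the remaining isoforms together were at 7.0 and 22.5 TPM, and none of the words of Tjap1-202 is its own. Nedd4l, a ubiquitin ligase that acts on the epithelial sodium channel, stood at 29.7 and 60.0 TPM. Nedd4l-215 fell from 24.9% to 10.8%, and the remaining isoforms, of 34 annotated in all, were at 22.3 and 53.5 TPM.

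Ppp2r5c, a regulatory subunit of protein phosphatase 2A, stood at 121.7 TPM without and 240.3 TPM with BMP2. Ppp2r5c-203 rose from 23.7% to 39.7% and from 28.9 to 95.4 TPM (q = 1.35e-09, authors' deposited table). Ppp2r5c-205, which starts 38486 bases further downstream, fell from 49.1% to 29.2% at 59.8 and 70.1 TPM (q = 2.95e-18, authors' deposited table). Ppp2r5c-203 is a model whose end is not annotated, and none of its words is its own.

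Dusp12, a dual-specificity phosphatase, moved from a protein-coding isoform toward its remaining isoforms and the isoform that lacks the exon of 119 bases. The remaining isoforms together rose from 42.6% to 53% and from 7.12 to 16.2 TPM. Dusp12-201 fell from 40.5% to 19.9% at 6.78 TPM without and 6.08 TPM with BMP2 (q = 0.00311, authors' deposited table). Dusp12-202 rose from 16.9% to 27.1% and from 2.82 to 8.31 TPM (q = 0.0393, authors' deposited table). Neither isoform has a word of its own, and 49.6% and 40.7% of their words occur in other genes, chiefly the opposite-strand gene Gm26620, which leaves both values uncertain.

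Mtus1, a microtubule-associated protein, stood at 32.6 TPM without and 54.8 TPM with BMP2. Mtus1-202 fell from 33.6% to 15.4% and from 11.0 to 8.49 TPM, while Mtus1-204 rose from 13.4% to 26.1% and from 4.36 to 14.2 TPM. The latter starts 116957 bases further downstream with the start codon shown above, and its end is not annotated. Of the 6518 words of Mtus1-202, 4 are its own. Tbc1d31, a centrosomal protein with a TBC domain, exchanged its most used isoform. Tbc1d31-206 rose from 37.3% to 57.2% and from 5.56 to 13.4 TPM, while Tbc1d31-201 fell from 53.6% to 32.7% at 7.94 and 7.64 TPM (q = 0.0134 and q = 0.00244, authors' deposited table). Ift172-201, of a carrier of intraflagellar transport, fell from 38.2% to 17.9% and from 4.17 to 2.78 TPM.

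The nuclear genes are E2f3, Pcgf5, Mycbp and Swt1, with levels 1.51-fold to 1.90-fold higher in BMP2. E2f3, a transcription factor of the cell cycle (chr13:29906575-29986063), held the largest usage change of the set. E2f3-201, the annotated isoform with the most upstream start, fell from 50.9% to 16.1% and from 3.72 to 1.93 TPM (q = 1.44e-15, authors' deposited table). The gene as a whole was at 7.30 TPM without and 12 TPM with BMP2, so its remaining isoforms, of 4 annotated in all, were at 3.58 and 10.1 TPM. E2f3 is known to make a longer protein from an upstream promoter and a shorter one from an internal promoter.

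Mycbp encodes a protein that binds MYC. Mycbp-201 fell from 83.2% to 57.5% at 14.5 TPM without and 15.3 TPM with BMP2, and the processed transcript Mycbp-203 rose from 13.4% to 32.1% and from 2.39 to 8.50 TPM (q = 0.00264 and q = 0.0125, authors' deposited table). None of the words of Mycbp-203 is its own, and 30% occur in Gm12905 on the opposite strand, so its values are uncertain. Pcgf5-211, of a subunit of Polycomb repressive complexes, fell from 35.4% to 22.5%, and Swt1-201, of a nuclear RNA endonuclease, fell from 92.5% to 78.5%.

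Metabolic and mitochondrial genes number 5, with levels 1.48-fold to 1.91-fold higher in BMP2. Selenbp2, a selenium-binding protein, stood at 21 TPM without and 40.1 TPM with BMP2. Selenbp2-205, which lacks the exon of 57 bases, rose from 46.8% to 72.6% and from 9.83 to 29.1 TPM, while Selenbp2-201 fell from 39.8% to 23.8% at 8.35 and 9.52 TPM (q = 2.1e-17 and q = 9.45e-09, authors' deposited table). Selenbp2-205 is a model of 477 bases whose end is not annotated. It also lacks exons 6 to 12 of Selenbp2-201, and its coding length is 386 bases against 1416. Selenbp1 shares 64% of the words of Selenbp2-205 and 67.0% of those of Selenbp2-201, so the division of reads between these paralogs is uncertain.

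Guk1, the guanylate kinase, stood at 79.5 TPM without and 120.9 TPM with BMP2. Guk1-204 fell from 64.6% to 46.3% of its transcripts at 51.3 and 56.0 TPM. Rpusd3-202, of a mitochondrial pseudouridine synthase, fell from 77.4% to 54.9% at 5.74 and 6.26 TPM (q = 0.0466, authors' deposited table). Vwa8-202, of a mitochondrial ATPase, fell from 30.7% to 20%, and Pyroxd1-201, of an oxidoreductase, from 82.3% to 66.7%. Exons on the opposite strand overlap 57.1% of Rpusd3-202 (Gm44280) and 52.5% of Pyroxd1-201 (Recql), so these values are uncertain as well.

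Of the remaining genes, Serf2 encodes a small protein that promotes amyloid aggregation and had the highest level, at 353 TPM without and 508 TPM with BMP2. Serf2-201 rose from 53.5% to 67.0% and from 188.9 to 340.6 TPM. Serf2-205, marked for nonsense-mediated decay, fell from 31.7% to 13.4% and from 111.8 to 67.9 TPM, with the lowest q of the set (q = 9.86e-51, authors' deposited table). It is the sole pair of the 15 in which use moved from another transcript class to a protein-coding isoform. Exons of Hypk overlap 80% of Serf2-205 on the same strand, and 79.4% of the words of Serf2-205 occur in Hypk. Fam221b shares 87.5% of the words of Serf2-201, so the values of both isoforms and the level of the gene are uncertain.

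The predicted genes complete the set. In 2900026A02Rik the isoforms exchanged rank, with 2900026A02Rik-202 rising from 39.6% to 55.5% and 2900026A02Rik-203 falling from 60.4% to 44.4% (q = 0.0493 and q = 0.0492, authors' deposited table). These q-values are the highest of the set. Gm8909-204, a processed transcript of a gene at 4.07 TPM without and 8.54 TPM with BMP2, fell from 64.9% to 35.2% at 2.64 and 3.01 TPM (q = 0.0450, authors' deposited table). Gm49395-204 rose from 73.5% to 97.1% and from 1.89 to 4.69 TPM (q = 0.00184, authors' deposited table). Other genes share 33.4% of the words of Gm8909-204 and 58.9% of those of Gm49395-204, which makes their values uncertain.

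**Figure D2:**
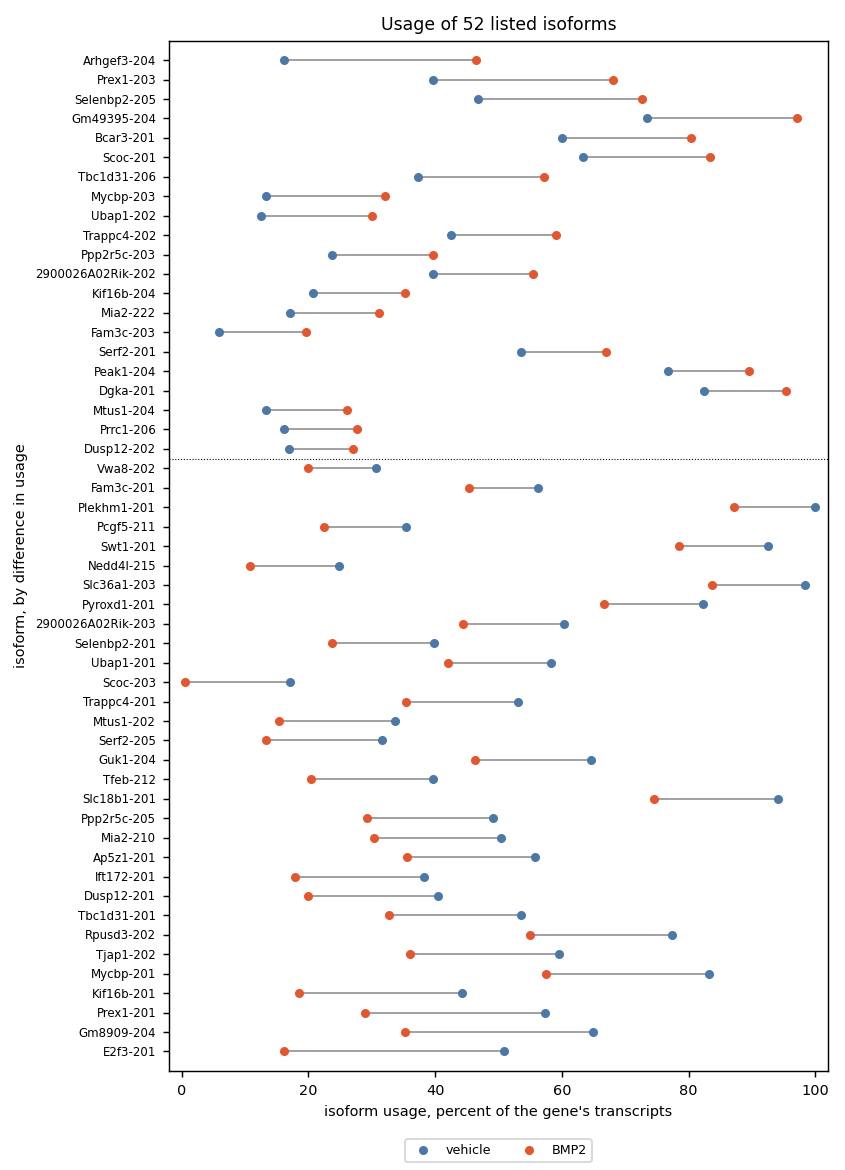
Usage of the 52 listed isoforms of the 37 genes in vehicle and BMP2, in percent of the gene's transcripts (authors' means), ordered by the difference. The 21 isoforms above the dotted line rose and the 31 below it fell, from a fall of E2f3-201 from 50.9% to 16.1% to a gain of Arhgef3-204 from 16.1% to 46.5%.

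Lower usage went with higher, level or lower abundance in these genes. Of the 31 isoforms with lower usage, 19 had a higher mean TPM in BMP2, or 61.3% against 19.9% of all listed isoforms with lower usage. Their mean TPM lay within 1.25-fold of vehicle in 20, or 64.5% against 21.1%. Examples are Tbc1d31-201, Trappc4-201, Mia2-210, Mycbp-201, Pcgf5-211 (6.28 and 6.62 TPM) and Guk1-204. A higher level of the gene was required, and an isoform of constant abundance then loses share by arithmetic, so nothing is read from this difference. Abundance was over 1.25-fold higher despite lower usage in Fam3c-201, 2900026A02Rik-203, Plekhm1-201, Slc36a1-203 and Swt1-201. It was over 1.25-fold lower in 6 isoforms, which are Scoc-203, E2f3-201, Serf2-205, Ift172-201, Mtus1-202 and Tfeb-212. In all, 40 of the 52 isoforms had a higher mean TPM in BMP2, and 46.0% of all listed isoforms did. The 21 isoforms with higher usage had to be more abundant, since both their share and the level of their gene were higher, and their ratios ran from 1.80-fold to 10.7-fold with a median log2 ratio of 1.64. The choice of genes by level fixes these counts as well, and nothing is read from them.

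**Figure D3:**
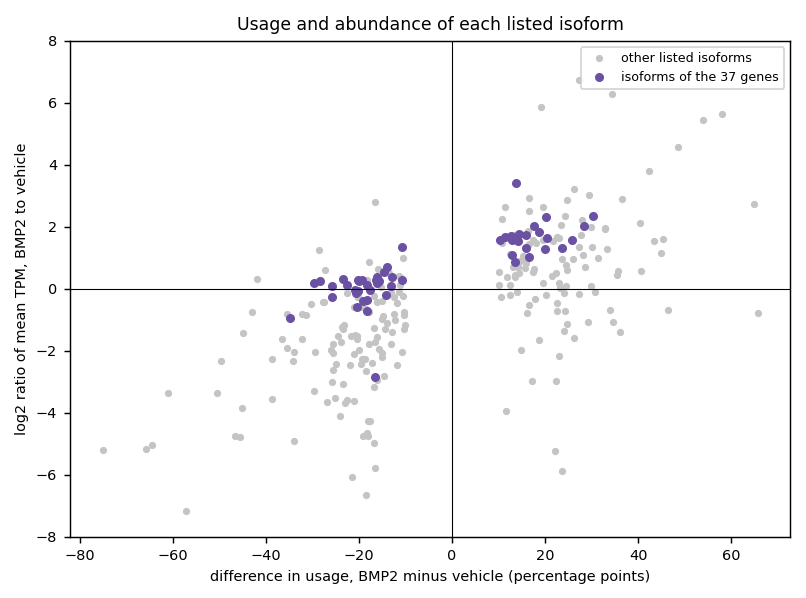
Log2 ratio of mean TPM (BMP2 to vehicle) against the difference in usage, for the 52 isoforms of the 37 genes and 240 other listed isoforms, each point an isoform. Isoforms of the 37 genes with lower usage lie around a ratio of 0 (median log2 ratio 0.13), while all listed isoforms with lower usage have a median of -1.21, a contrast that the choice of genes by level builds in. A further 10 isoforms at 0 TPM in a condition could not be drawn, and 3 lie beyond the axis limit of 8.

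The change in gene level was divided among listed isoforms with higher usage, listed isoforms with lower usage and the remaining isoforms, whose TPM is the implied level minus the listed sum. Listed isoforms with higher usage carried over 50% of the change in 16 genes. In Dgka, Peak1, Gm49395 and Selenbp2 they carried more than the whole change, since the remaining isoforms were lower in BMP2. Remaining isoforms carried over 50% in 17 genes, and a listed isoform with lower usage did so in 3, which are Swt1, Slc36a1 and Plekhm1. In Fam3c no part carried over 50%, with 26.0% in Fam3c-203, 40.4% in Fam3c-201 and 33.5% in the rest. Of the 16 genes with a lost isoform alone, the remaining isoforms carried over 50% in 13, among them E2f3, Tjap1, Nedd4l, Guk1 and Tfeb. The isoforms behind the higher level of these genes were not analysed here. The split was made for the 37 genes alone, so its counts have no share over all listed genes beside them. A higher level was required of each gene, so a listed isoform with higher usage had to add to the change. Nothing is read from these counts.

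**Figure D4:**
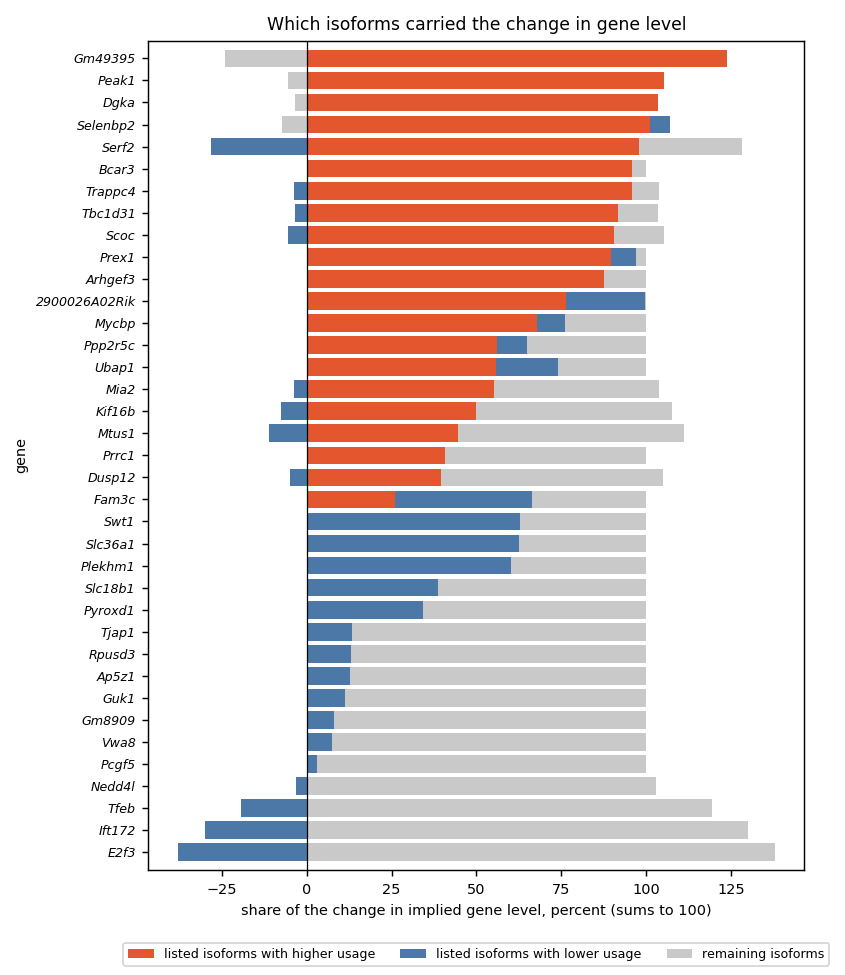
Share of the change in implied gene level (percent) carried by listed isoforms with higher usage, listed isoforms with lower usage and remaining isoforms, for each of the 37 genes. The parts of a gene sum to 100, and bars left of 0 are isoforms that were less abundant in BMP2, as in E2f3 at -37.9%.

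Isoforms with opposite changes were listed in 15 of the 37 genes, or 40.5% against 44.6% of all 202 genes. Another listed isoform became the most used in 9 of the 15, against 41.1% of all genes with opposite changes. These numbers are small and are given as counts. The isoform losing usage was protein-coding and its partner was not in 3 pairs (Dusp12, Mycbp and Trappc4), or 20% against 31.0% of all 87 matched pairs, and the reverse held in Serf2 alone, against 11.5%. All 3 of these genes and Serf2 have an isoform that shares at least 30% of its words with other genes. Both isoforms were protein-coding in 11 pairs, or 73.3% against 54.0% of all matched pairs and 85.7% of those in the other raised genes.

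Most of the pairs differed at the start, the end or both. Annotated starts lay over 50 bases apart in 12 of 15 pairs, against 77.0% of all pairs, and over 10 kb apart in 8, or 53.3% against 33.3%. In 2 of these 8, Kif16b and Tbc1d31, the model with higher usage has no annotated start, so its printed start is where the model is cut off. Annotated ends lay over 50 bases apart in 11 pairs, or 73.3% against 72.4%, which is near the background. Among these, the model with higher usage has no annotated end in Mtus1, Ppp2r5c and Selenbp2, so its end is where the model is cut off. The isoform with higher usage starts further downstream in Prex1 by 131761 bases and in Mtus1 by 116957 bases, and the models of Kif16b-204 and Tbc1d31-206 begin 198860 and 46214 bases downstream. It starts further upstream in 2900026A02Rik, Ppp2r5c, Mia2 and Scoc, by 15844 to 83250 bases. In 2900026A02Rik the upstream isoform has a coding length of 5301 bases against 1155. The isoform with higher usage was the shorter transcript in 11 of 15 pairs, or 73.3% against 62.1%, and in 6 of the 11 its model is incomplete. Its coding length was shorter in 8 of the 13 pairs with coding lengths on both sides, against 55.8% of all such pairs, with a median difference of -507 bases against -64.5. In 5 of these 8 the model with higher usage is incomplete, so its coding length is cut short by the annotation.

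**Figure D5:**
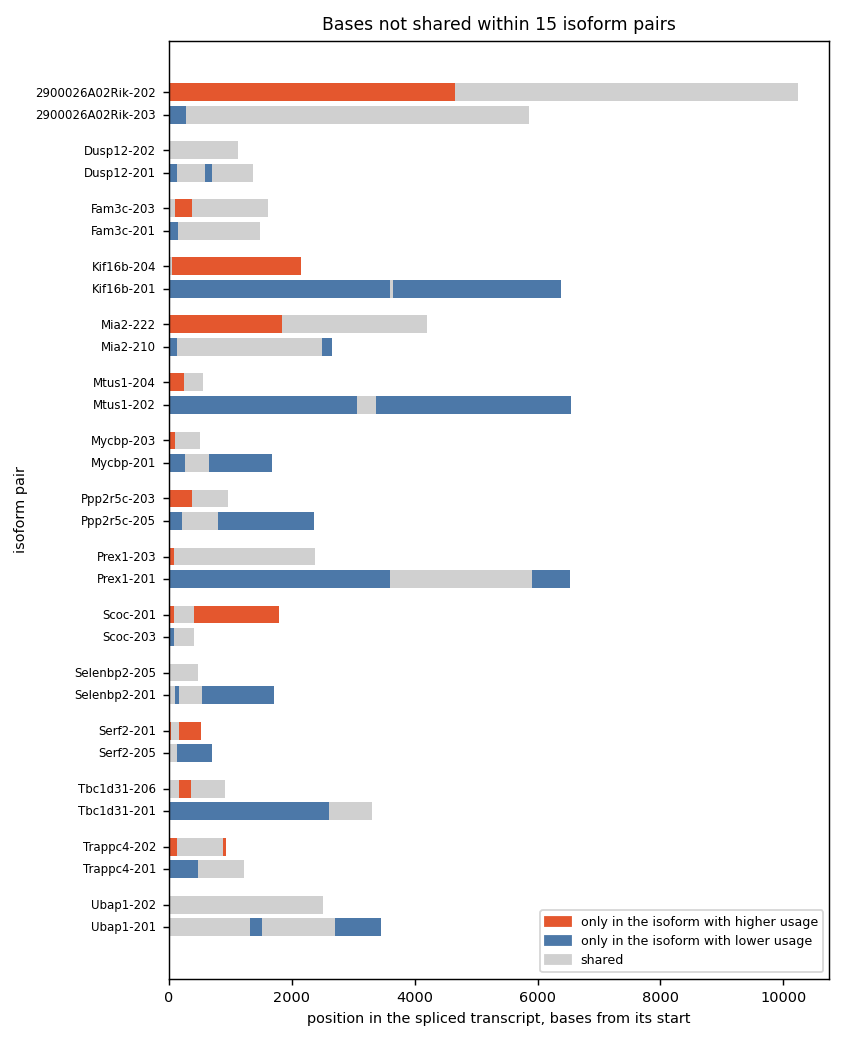
Spliced transcripts of the 15 pairs, drawn to scale in bases from the transcript's start, with bases found in the partner in grey and bases of 1 isoform alone in colour. Prex1-201, Mtus1-202, Kif16b-201 and Tbc1d31-201 carry long unshared stretches from the 5' end, while in Ubap1, Selenbp2 and Dusp12 an internal exon is absent from the isoform with higher usage.

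Models that are annotated as incomplete stood mainly among the isoforms that gained usage. Of 21 isoforms with higher usage 7 lack an annotated start or end, which are Kif16b-204, Mtus1-204, Mycbp-203, Ppp2r5c-203, Prrc1-206, Selenbp2-205 and Tbc1d31-206, and of 31 with lower usage 1 does, Tfeb-212. These 8 are 15.4% of the 52, against 9.43% of all isoforms matched to the annotation, where 21 gained and 7 lost usage. Of the 52 isoforms 8 have no word of their own, among them the incomplete models Mycbp-203 and Ppp2r5c-203. The part of this in the changes was not tested.

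The other 19 raised genes differed from these 37 in several counts, which are given as descriptions. Their median log2 ratio of level was 1.38 against 0.81, and 14 of them were over 2-fold higher, against 8 of the 37 and 11.3% of all 195 genes. Opposite changes were listed in 15 of the 19. Isoforms with higher usage had the longest annotated coding sequence of their gene in 76.5% of the matched isoforms there, in 38.1% here and in 33.3% over all listed genes. The 8 here are Arhgef3-204, Bcar3-201, Dgka-201, Fam3c-203, Mia2-222, Scoc-201, Serf2-201 and 2900026A02Rik-202. Among isoforms with lower usage the shares were 50%, 51.6% and 58.2%.

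Counted by the first letters of their symbols alone, the 37 genes hold 2 of 3 solute carriers in the table. By the same count they hold 2 of 5 GTPases and regulators (Arhgef3 and Tbc1d31) and 2 of 5 kinases and phosphatases (Dusp12 and Ppp2r5c). They also hold 1 of 3 ubiquitin genes (Ubap1), none of 4 zinc finger genes and not the 1 Tmem gene in the table. Such counts leave out members with other symbols, such as the exchange factor Prex1, the kinases Guk1 and Dgka and the ubiquitin ligase Nedd4l. The set itself is 37 of all 202 genes, and nothing is read from counts this small.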

How the data were processed

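Bulk RNA sequencing of 6 libraries was used, with extraction by RNeasy Micro Kit and a BGI library kit per the labels' protocols. The submitters' processing notes name kallisto 0.46.1 and the build mm39. Whether libraries came from separate cultures is not stated. One table of the authors' comparison was deposited. Its isoform fractions, the differences between them (a score here, within 0.001 of the printed fractions), the q-values and the mean TPM values are the authors', per the file headers. Rank was not used. The sources used here name no annotation release, test, filter or strandedness. Values per library were not used, so depth and its precision are unknown, and the planned test across libraries was replaced by the authors' q-values.

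Levels were computed with pandas 2.3.3, checked on simulated data. Rounding of fractions moves no gene below the threshold, and levels from isoforms of the same gene differed by at most 1.95% for fractions of at least 0.05, and by 6.39% for Scoc in BMP2, where Scoc-203 has 0.6%. All 52 isoforms were matched by stable identifier to GENCODE M21 (GRCm38), each with a version 1 step lower than in the table. No position was converted. Words of 31 bases were counted in all M21 transcripts on both strands. Full values were given for the 12 genes with the largest usage difference and the 6 with the highest ratio. The genes, lists and functional groups were chosen with earlier results of these data known.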

Additional observations from a re-analysis of the deposited data

How the results depend on the processing

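No paired analysis was possible because the values used are means per condition, and for the same reason leaving out replicates and the replicate block were not run. With a q under 0.01, genes with opposite changes were 9, pairs leaving the protein-coding class 1, the median log2 level ratio 0.78, the median coding difference -768.5 bases and the median transcript difference -1242 bases. With a usage difference over 0.2 there were 17 genes, 6 isoforms with higher and 12 with lower usage, 12 with a higher mean TPM, 1 gene with opposite changes, 1 with another most used isoform, 0 pairs of either class change, a median ratio of 0.91 and differences of -3564 and -4147 bases, from Prex1 alone. With 5 TPM required in both conditions the median ratio was 0.78 and the differences -345 and -613.5 bases. A log2 ratio over 1 left 8 genes, and 1 TPM added to both levels gave a median of 0.73 and kept 34 genes. Without isoforms that share at least 30% of their words with other genes, an alternative chosen after the data were seen, genes with opposite changes were 9, class changes 0 in both directions and the median transcript difference -1411 bases, against the reported -942. The other 25 values stayed within 1.5 times the reported count or, for medians, equal at 2 decimals. Stricter settings leave fewer isoforms, which lowers the counts. The pairs with a class change are those of Dusp12, Mycbp, Trappc4 and Serf2, and each holds an isoform that the word setting removes. Depth is unknown, so the lowest genes, such as Gm49395 at 2.57 TPM in vehicle, have no stated precision.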
